A study of Mus musculus with 12 samples.

Results

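The monocyte and macrophage genes described here are 41 mouse genes picked by symbol, and all 41 were found among the 24310 gene rows of each deposited table. They were followed across 12 RNA-seq libraries of CMM cells, a GFP-marked transplantable mouse line labelled as acute myeloid leukaemia (AML), and the series title names the inv(16) chromosome inversion that these leukaemias carry. Every mouse was a C57BL/6 host given CMM cells intravenously. Treatment started when about 1% of blood cells were GFP positive and consisted of 3 intravenous injections on alternate days. Of the 12 libraries, 4 are labelled PBS (vehicle), 4 CpG-scrODN (a CpG oligonucleotide joined to a scrambled decoy) and 4 CpG-STAT3dODN (the CpG oligonucleotide joined to a decoy that binds the transcription factor STAT3). The spleen was collected 1 day after the final dose, and its cells were enriched for the progenitor receptor c-Kit with magnetic selection. The series design also mentions sorting of GFP-positive cells. The study's title is about STAT3 inhibition and differentiation driven by the CpG receptor TLR9 and the transcription factor IRF8, so the question for these genes is how their levels differed between the groups. The sources used here do not give the age of the mice, how many mice a library holds or the number of CMM clones.

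The labels and the deposited column headers name different treatments. The 4 libraries labelled PBS are headed DEC, the 4 labelled CpG-scrODN are headed PBS, and the 4 labelled CpG-STAT3dODN are headed SCR. Groups are therefore called by their label throughout, and a higher or lower level is tied to the label alone, never to what was injected. Stat3, the target of the decoy, does not settle the labels, since a decoy binds the protein and only mRNA was measured here. Stat3 measured 34.3 to 51.1 RPKM over the 12 libraries, and its log2 difference was 0.07 ± 0.13 (SE) between the libraries labelled CpG-scrODN and PBS (limma adjusted p = 0.82).

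Monocytes arise in the bone marrow from c-Kit positive progenitors under the transcription factors PU.1, IRF8 and C/EBP proteins, and they turn into macrophages or dendritic cells in tissues. On the way they gain adhesion integrins, receptors for antibody and for microbial sugars, the oxidase that makes superoxide, lysosomal enzymes and lysozyme. In acute myeloid leukaemia this path is blocked early, and the same genes serve as a readout of how far leukaemic cells have moved along it. Several of them are not restricted to monocytes. Neutrophils share the oxidase, the lysozymes and Itgam, while B cells express Pld4, Itgal, Plac8 and the oxidase genes.

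Promoter sequence is shown for 4 of the 10 genes called below, as examples of windows that hold motifs of the factors named above. Itgam, 1 of the 4, has the weakest call of the 10. The windows come from RefSeq on GRCm38.p6, the assembly also called mm10, and run from 250 bases before to 50 after an annotated transcription start, 5′ to 3′ on the gene's strand. Capitals mark matches to the PU.1 core GAGGAA, the interferon response core GAAANNGAA bound by IRF proteins or the STAT palindrome TTCNNNGAA, each searched on both strands. Cybb lies at chrX:9469275-9469574 on the minus strand, Itgam at chr7:128062390-128062689 on the plus strand, Pld4 at chr12:112760405-112760704 on the plus strand and Ncf1 at chr5:134229576-134229875 on the minus strand.
Cybb: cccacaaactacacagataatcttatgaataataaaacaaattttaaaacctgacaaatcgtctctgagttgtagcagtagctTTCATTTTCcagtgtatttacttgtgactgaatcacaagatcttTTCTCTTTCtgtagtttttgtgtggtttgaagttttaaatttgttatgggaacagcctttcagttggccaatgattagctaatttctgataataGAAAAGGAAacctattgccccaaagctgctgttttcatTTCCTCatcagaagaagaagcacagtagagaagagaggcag
Itgam: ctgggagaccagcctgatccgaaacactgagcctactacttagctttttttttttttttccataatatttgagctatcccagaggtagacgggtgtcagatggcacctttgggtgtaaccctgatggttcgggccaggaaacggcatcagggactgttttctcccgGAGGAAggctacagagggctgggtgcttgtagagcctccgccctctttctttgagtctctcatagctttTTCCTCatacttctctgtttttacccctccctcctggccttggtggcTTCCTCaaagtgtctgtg
Pld4: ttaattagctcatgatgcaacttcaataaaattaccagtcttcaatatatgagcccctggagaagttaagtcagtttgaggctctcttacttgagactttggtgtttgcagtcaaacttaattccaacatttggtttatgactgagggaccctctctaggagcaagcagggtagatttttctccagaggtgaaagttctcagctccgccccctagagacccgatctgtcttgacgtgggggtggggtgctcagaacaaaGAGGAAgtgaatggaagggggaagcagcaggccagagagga
Ncf1: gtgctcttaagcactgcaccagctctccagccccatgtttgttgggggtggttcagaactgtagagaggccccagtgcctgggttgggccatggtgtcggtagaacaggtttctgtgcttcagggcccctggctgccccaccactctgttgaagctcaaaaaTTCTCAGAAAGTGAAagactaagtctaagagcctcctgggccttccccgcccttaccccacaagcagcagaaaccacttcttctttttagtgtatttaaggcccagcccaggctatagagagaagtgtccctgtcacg
In Cybb the capitals are, in order, 3 interferon response cores and 1 PU.1 core, and in Itgam they are 3 PU.1 cores. Pld4 holds 1 PU.1 core, 9 bases after the annotated start that its window is set on. For Pld4 and Cybb that start lies inside the gene span given below and not at its 5′ end. In Ncf1 a STAT palindrome and an interferon response core overlap and form a single run of capitals. RefSeq windows were given for 31 of the 41 genes, 36 windows in all. Of these, 19 held a PU.1 core (52.8%, against 28.3% of all 32851 windows of this length), 7 an interferon response core (19.4% against 8.56%), 7 the C/EBP core TTGCNNAA (19.4% against 10.8%) and 2 a STAT palindrome, in Fcgr1 and Ncf1 (5.56% against 8.3%). Some genes contribute 2 windows that share sequence, and a match describes letters only.

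Levels are RPKM, reads scaled to transcript length and to the mapped reads of the library, and can be compared between genes. Alox5ap had the highest mean over the 12 libraries (211 RPKM), followed by Lyz2 (196) and S100a10 (171), and Cd36 had the lowest (0.296). Of the 41 genes, 37 reached 1 RPKM in at least 4 libraries and were tested with 10886 genes in all. Itgax would not pass without the libraries labelled PBS, and the other 36 would pass on the other 8 libraries alone. The 4 that were not tested are Fcgr1, Cx3cr1, Maf and Cd36, which mark mature monocytes and macrophages. Fcgr1 ranged from 0.297 to 1.98 RPKM, Cx3cr1 from 0.277 to 1.36, Maf from 0.266 to 1.75 and Cd36 from 0.119 to 0.764. Their low level is what the filter selects. Other markers of mature cells in the set passed it, such as Lyz2, Cd68, Mpeg1, Fcgr4 and Cd14. Cx3cr1 and Fcgr1 did not overlap between PBS and either CpG label. Fitted without the filter, both were called lower for CpG-scrODN and Cx3cr1 also for CpG-STAT3dODN.

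Some libraries stood apart. Fos, an immediate-early gene that rises during tissue handling, was at 12.9 RPKM in PBS replicate 4 and 5.91 in CpG-STAT3dODN replicate 4, against 486 to 1156 in the other 10 libraries. Correlations of log2 values between libraries of 1 group were 0.929 to 0.988 for the label PBS, 0.984 to 0.997 for CpG-scrODN and 0.928 to 0.993 for CpG-STAT3dODN. PBS replicate 4 was the highest of all 12 libraries for 14 of the 37 genes, and CpG-scrODN replicate 3 was the lowest for 14. The matching shares of all tested genes are not given here, so these counts describe the libraries only. Estimated depth was similar, between 31420000 and 36160000 reads, so 1 RPKM stands for about 31.4 reads per kilobase in the shallowest library.

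**Figure D1:**
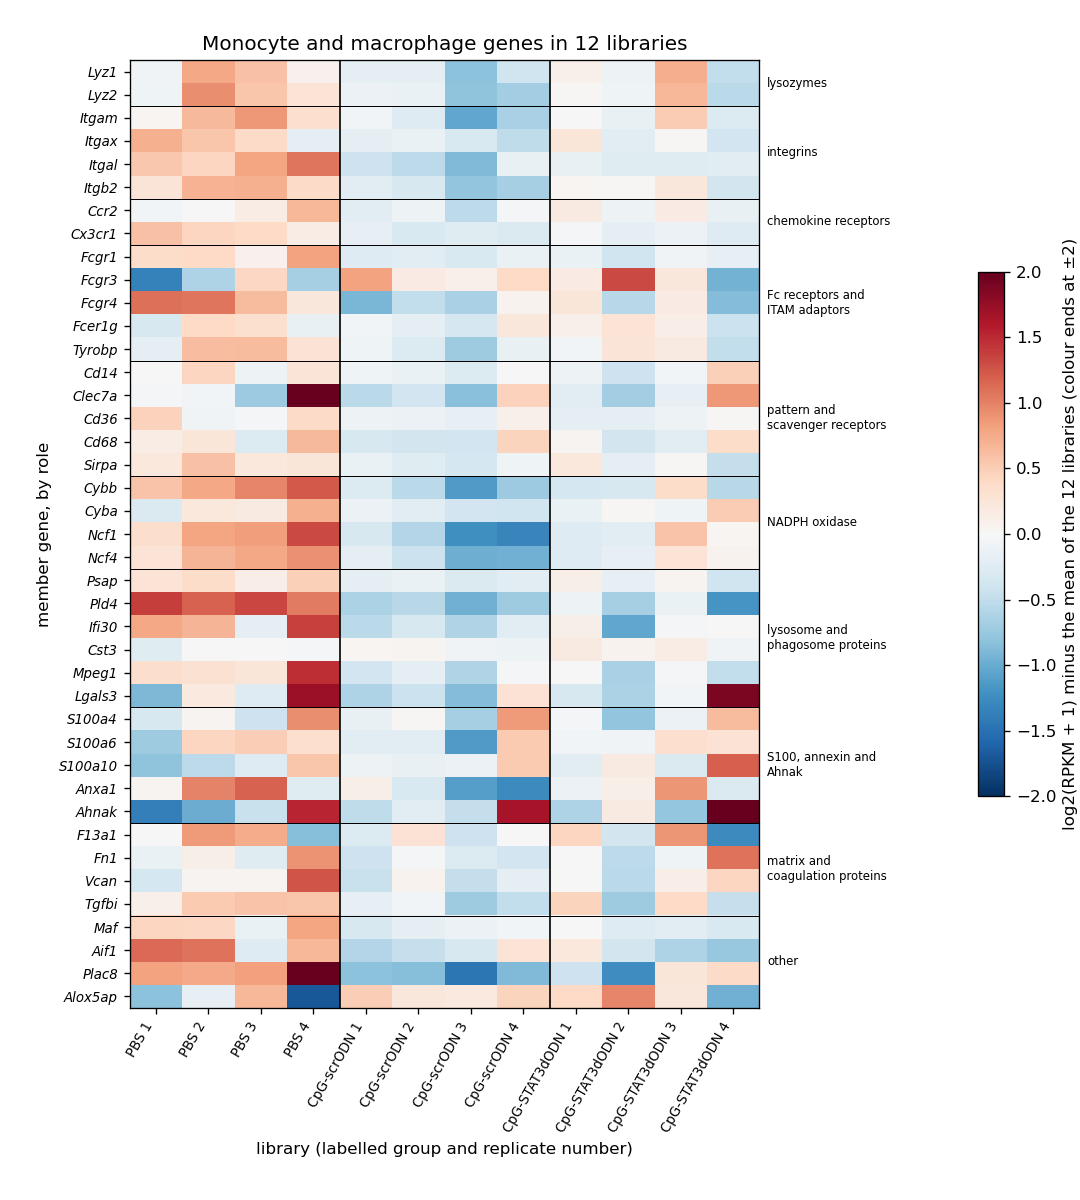
All 41 genes (rows, by role) in the 12 libraries (columns), coloured by log2(RPKM + 1) minus the gene's mean over the 12 libraries. Most rows are red in the libraries labelled PBS and blue in those labelled CpG-scrODN, while Fcgr3 and Alox5ap run the other way in several libraries and Ahnak, Lgals3 and Clec7a are red in replicate 4.

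Between the libraries labelled CpG-scrODN and those labelled PBS, 10 of the 37 tested genes were lower with the label CpG-scrODN (27%) and 0 were higher, by limma on log2(RPKM + 1) at an adjusted p under 0.05. Over all tested genes, 4.04% were lower and 0.11% higher. The 10 are Pld4, Itgal, Cybb, Ncf4, Ncf1, Itgb2, Plac8, Psap, Fcgr4 and Itgam, so the subunits of the superoxide-making oxidase and of the leukocyte integrins make up 6 of them. Unadjusted p was under 0.05 for 22 of the 37 (59.5%), against 15.6% of all tested genes. The 4 libraries of 1 label did not overlap those of the other for 16 genes, all lower with the label CpG-scrODN (43.2%), against 10% of all tested genes lower and 3.83% higher. The median log2 difference was -0.64 over the 37 and -0.05 over all tested genes. Without both libraries of low Fos, 11 of the 37 were called, of which 9 are among the 10.

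Between CpG-STAT3dODN and PBS labels, 3 of the 37 were lower with the label CpG-STAT3dODN (8.11%) and 0 higher, against 1.83% and 0.0276% of all tested genes. These 3 are Pld4, Itgal and Cybb. Groups did not overlap for 8 genes, all lower (21.6%, against 4.23% of all tested genes lower and 0.818% higher), and the median log2 difference was -0.36, against -0.01 over all. Both comparisons use the same 4 libraries labelled PBS, so they are not independent. Without both libraries of low Fos, 2 of the 37 were called, and Cybb was the one lost.

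Between CpG-STAT3dODN and CpG-scrODN labels, limma called 0 of the 37 in either direction, as it called 0% of all tested genes lower and 0% higher. Unadjusted p was under 0.05 for 3 of the 37 (Ncf1, Ncf4 and Itgb2) and for 295 of the 10886. Groups did not overlap for 1 gene, Ncf1, which was higher with the label CpG-STAT3dODN, against 3.38% of all tested genes higher and 0.873% lower. The median log2 difference was 0.24 over the 37 and 0.03 over all tested genes. With library quality weights in limma, which did not reach their convergence tolerance, 12 of the 37 were called in this comparison, 8 between CpG-STAT3dODN and PBS and 19 between CpG-scrODN and PBS.

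**Figure D2:**
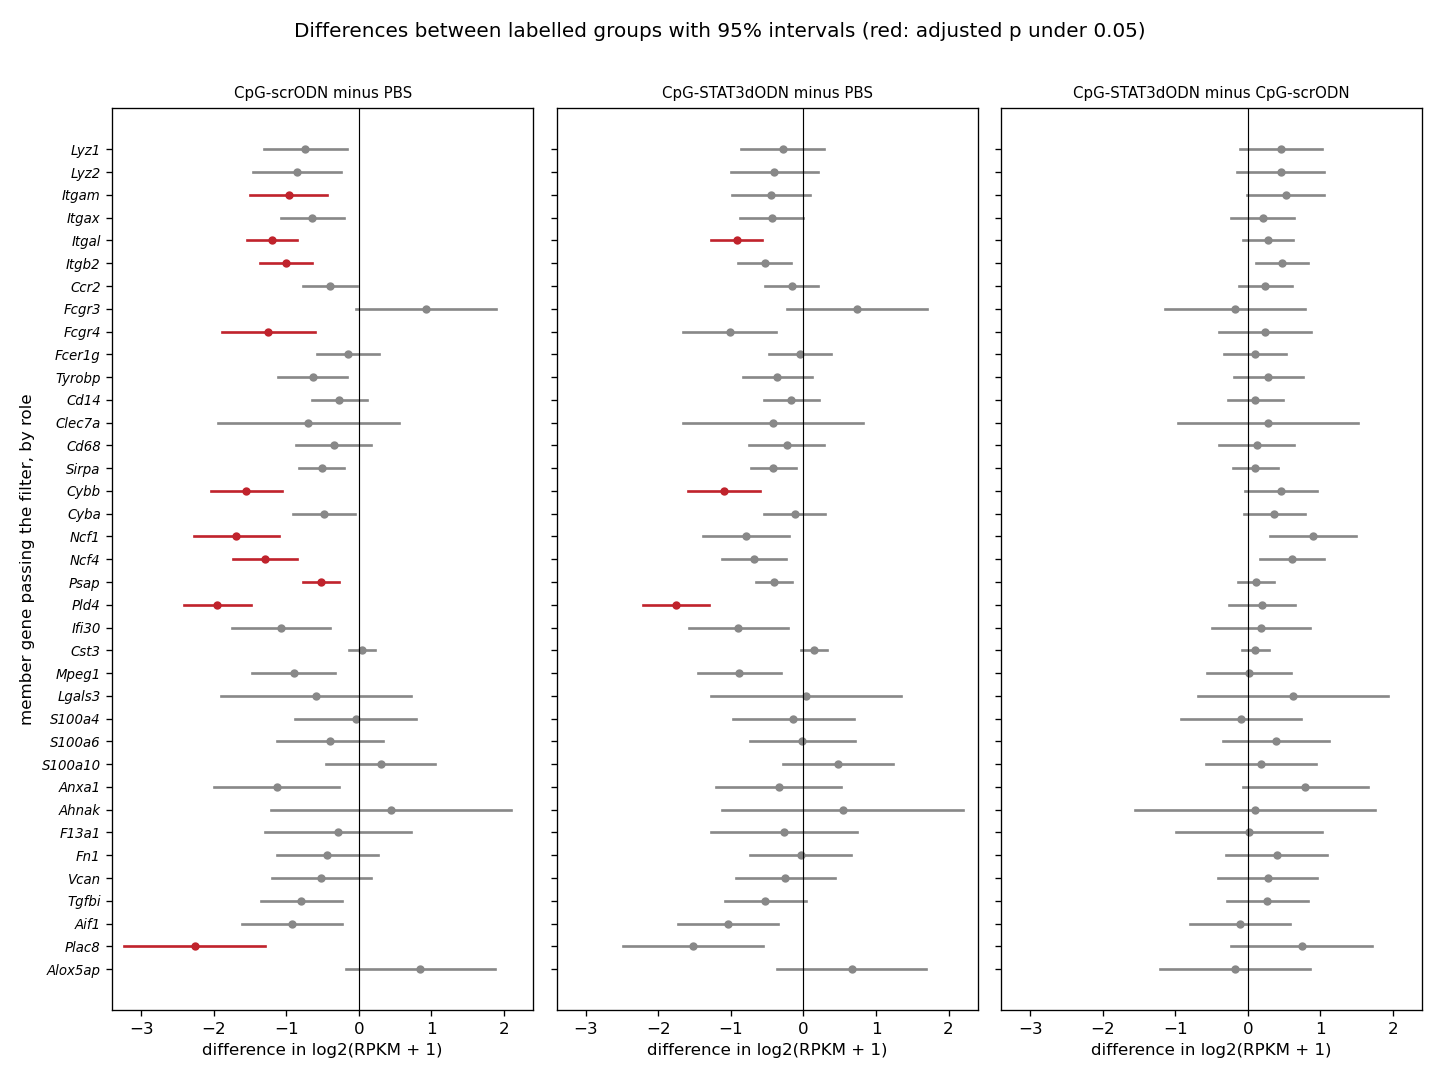
Fitted difference in log2(RPKM + 1) for the 37 tested genes (rows, by role) in the 3 comparisons (panels), with 95% intervals. Red marks an adjusted p under 0.05, which 10 genes reach in the first panel, 3 in the second and 0 in the third, all to the left of 0.

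Values of single genes are given below in RPKM for replicates 1 to 4, first for the label PBS, then CpG-scrODN, then CpG-STAT3dODN, and differences are on the log2(RPKM + 1) scale, which understates the change of low genes.

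The leukocyte integrins are pairs of an alpha chain with the shared beta chain Itgb2 (CD18). All 4 of them had negative differences between the CpG-scrODN and PBS labels (against 59.9% of all tested genes), and 3 were called lower. Itgal (CD11a), which forms LFA-1 with Itgb2, is at chr7:127296139-127335137. It measured 12.1, 11.1, 14.4 and 17.7 RPKM with the label PBS, 5.71, 5.23, 3.86 and 7.04 with CpG-scrODN, and 7.11, 6.55, 6.58 and 6.64 with CpG-STAT3dODN. Every PBS library lay above the other 8. The log2 difference to PBS was -1.20 for CpG-scrODN (limma adjusted p = 0.0011) and -0.92 for CpG-STAT3dODN (adjusted p = 0.010), each with SE 0.16.

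Itgb2 (chr10:77530329-77565708) measured 23.9, 32.7, 32.8 and 26.0 RPKM, then 16.9, 15.7, 11.02 and 12.1, then 20.2, 20.0 and 23.3 with 15.0 in replicate 4. Both groups lay below every PBS library, but only the difference for CpG-scrODN passed (-1.01 ± 0.17, limma adjusted p = 0.0041). For CpG-STAT3dODN it was -0.53 (adjusted p = 0.19). Itgam (CD11b), whose promoter with 3 PU.1 cores is shown above, pairs with Itgb2 as the complement receptor Mac-1. It measured 11.3, 17.6, 20.8 and 14.0 RPKM, then 10.5, 8.94, 4.83 and 6.63, then 11.01, 9.80, 16.0 and 8.84. The CpG-scrODN libraries were below all PBS libraries by a narrow margin, with a log2 difference of -0.97 ± 0.24 (limma adjusted p = 0.048). That call was lost without any 1 of 8 libraries, among them PBS replicates 2, 3 and 4 and CpG-scrODN replicates 2, 3 and 4. Itgax (CD11c) stayed between 0.589 and 2.70 RPKM and was not called.

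The phagocyte NADPH oxidase consists of the membrane pair Cybb (gp91phox) and Cyba (p22phox) and cytosolic subunits that include Ncf1 (p47phox) and Ncf4 (p40phox). With the label CpG-scrODN, 3 of the 4 were called lower. Cybb (chrX:9435252-9487766), the catalytic subunit, measured 20.8, 24.2, 27.9 and 33.6 RPKM, then 11.2, 9.15, 5.76 and 7.90, then 10.6, 10.8, 18.1 and 8.99. No library of the other labels reached the lowest PBS library. The log2 difference was -1.55 for CpG-scrODN (limma adjusted p = 0.0018) and -1.10 for CpG-STAT3dODN (adjusted p = 0.029), with SE 0.23. The second call was lost without any 1 of PBS replicates 2, 3 and 4 or CpG-STAT3dODN replicates 1, 2 and 4.

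Ncf1 (chr5:134220053-134229628) carries the organising subunit and holds the STAT palindrome shown above. It measured 23.2, 32.0, 33.1 and 46.6 RPKM, then 14.2, 11.7, 7.11 and 6.62, then 15.0, 15.3, 27.3 and 18.6. The CpG-STAT3dODN libraries sat between the others, above every CpG-scrODN library and overlapping PBS. The log2 difference to PBS was -1.69 ± 0.27 for CpG-scrODN (limma adjusted p = 0.0034) and -0.79 for CpG-STAT3dODN (adjusted p = 0.26). Between the CpG labels it was 0.90, with an unadjusted p of 0.0064 and a limma adjusted p of 0.96. Ncf4 (chr15:78244164-78262582) measured 16.3, 21.7, 23.2 and 25.9 RPKM, then 11.5, 9.60, 6.23 and 6.27, then 10.8, 11.7, 16.1 and 13.9. Its difference was -1.30 ± 0.20 for CpG-scrODN (limma adjusted p = 0.0028) and -0.68 for CpG-STAT3dODN (adjusted p = 0.16). Cyba ranged more narrowly, from 91.9 to 199.6 RPKM, and was not called (-0.48, adjusted p = 0.24, for CpG-scrODN).

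**Figure D3:**
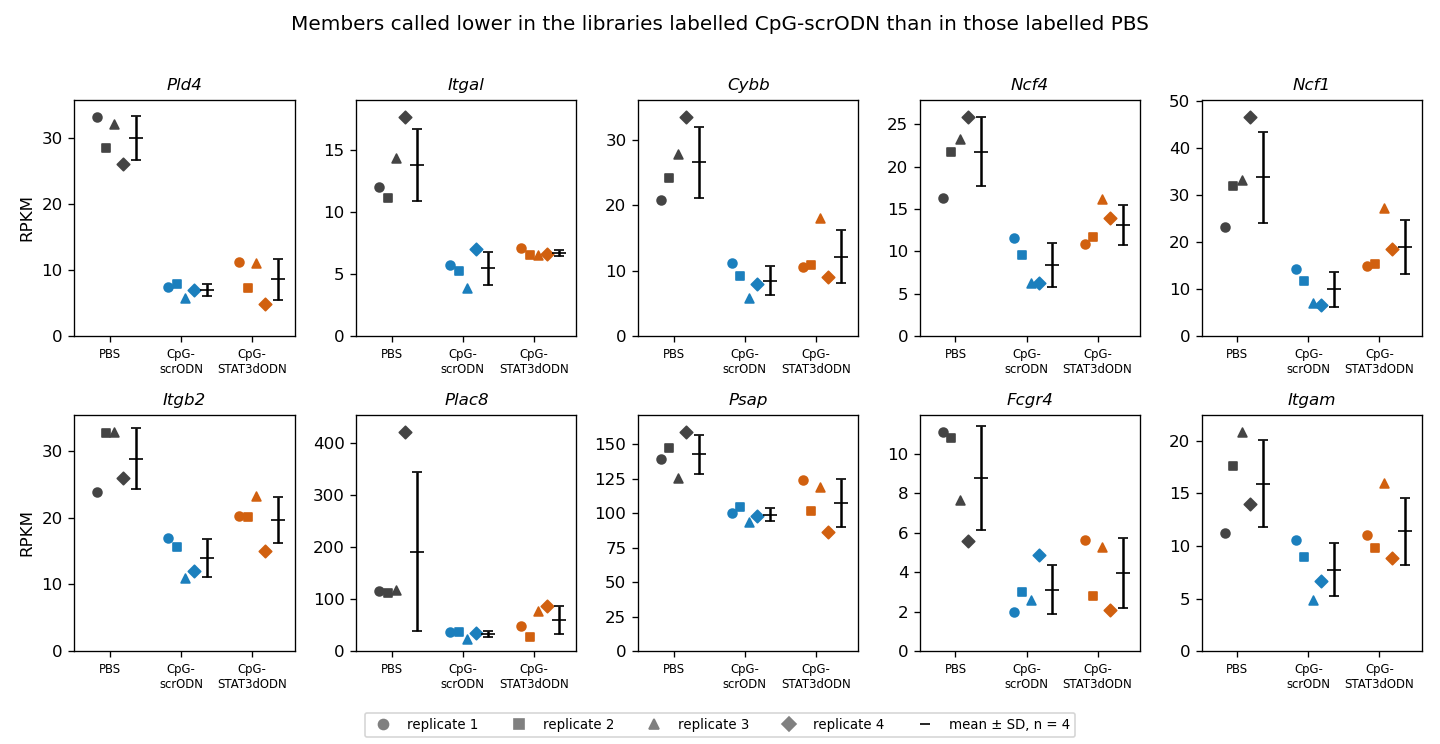
RPKM of the 10 genes called lower with the label CpG-scrODN than with PBS, 1 panel a gene, with each library as a point (marker shape for the replicate number) and mean ± SD of 4 libraries beside it. The Plac8 panel shows PBS replicate 4 at 420.3 RPKM, above all the others, and in the Ncf1 and Ncf4 panels CpG-STAT3dODN lies between the other labels.

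Of the 6 lysosome and phagosome genes, Pld4 and Psap were called lower for CpG-scrODN. Pld4 (chr12:112760446-112768986) encodes an endolysosomal exonuclease that trims single-stranded DNA from its 5′ end and limits the nucleic acids that reach TLR9. It measured 33.1, 28.5, 32.1 and 26.0 RPKM, then 7.41, 7.90, 5.73 and 6.97, then 11.2, 7.22, 10.97 and 4.80. Even the lowest PBS library (26.0) was far above the highest of the other 8 (11.2). Pld4 had the smallest adjusted p of the 37 in both comparisons with PBS. The log2 difference was -1.95 (95% interval -2.41 to -1.50, limma adjusted p = 0.00027) for CpG-scrODN and -1.75 (-2.21 to -1.30, adjusted p = 0.00097) for CpG-STAT3dODN.

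Psap (chr10:60277628-60302600), the precursor of the saposins that help break down sphingolipids, measured 139, 147, 125 and 159 RPKM, then 100.05, 105, 93.6 and 97.8, then 124, 102, 119 and 86.2. The shift was small and regular, with all PBS libraries above the rest. The log2 difference was -0.52 ± 0.11 for CpG-scrODN (limma adjusted p = 0.023) and -0.41 for CpG-STAT3dODN (adjusted p = 0.12). The call was lost without any 1 of PBS replicates 1, 2 and 4 or of the 4 CpG-scrODN libraries. Ifi30, a thiol reductase of antigen processing, and Mpeg1, the pore-forming perforin-2, did not pass, with -1.08 (adjusted p = 0.090) and -0.90 (adjusted p = 0.095). Cst3, a cysteine protease inhibitor, lay between 92.0 and 123.7 RPKM in all 12 libraries, with a difference of 0.05 (95% interval -0.14 to 0.23). Lgals3 encodes the lectin galectin-3 and is described with replicate 4.

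The antibody receptors and the signalling adaptors listed with them differed among themselves. Fcgr4 (chr1:171018926-171029761), a mouse activating IgG receptor, measured 11.1, 10.8, 7.69 and 5.59 RPKM, then 2.001, 3.02, 2.58 and 4.89, then 5.63, 2.82, 5.28 and 2.08. It was called lower for CpG-scrODN (-1.25 ± 0.29, limma adjusted p = 0.031) and not for CpG-STAT3dODN (-1.02, adjusted p = 0.15). The call was lost without PBS replicate 1 or 2 or CpG-scrODN replicate 1, 2 or 3. Fcgr3, a second activating IgG receptor, pointed the other way without being called (0.92, adjusted p = 0.35), and 10.7 to 73.3 RPKM was its range. The signalling adaptors of the set that carry ITAM motifs were not called: Fcer1g differed by -0.15 and Tyrobp by -0.64 (adjusted p = 0.74 and 0.16). Reads of the closely related Fc receptor genes may be split between them in the authors' counting.

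Lysozyme cleaves bacterial cell walls and is a standard myelomonocytic marker. Lyz2 measured 173, 352, 269.9 and 222 RPKM, then 169, 167, 105 and 113, then 186, 173, 292 and 126. All CpG-scrODN libraries were below all PBS libraries, yet the spread within PBS was wide and the difference did not pass (-0.85 ± 0.27, limma adjusted p = 0.13). Its neighbour Lyz1 was at 3.25 to 11.9 RPKM and gave -0.74 (adjusted p = 0.18). The pair is nearly identical in sequence, so counts of Lyz1 and Lyz2 are uncertain where reads fit both.

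Ccr2, the receptor for the chemokine that calls monocytes out of the marrow, measured 6.59, 6.87, 7.80 and 11.6 RPKM, then 5.88, 6.38, 4.49 and 6.84, then 7.98, 6.41, 7.91 and 6.15. The 3 groups overlapped (-0.40, limma adjusted p = 0.27, for CpG-scrODN). Among the pattern and scavenger receptors, Sirpa, which binds the CD47 signal on other cells, had the highest mean. It measured 12.8, 16.9, 12.8 and 13.1 RPKM, then 9.85, 9.11, 8.33 and 10.2, then 12.8, 9.53, 11.2 and 7.60. CpG-scrODN lay wholly below PBS, but the difference did not pass (-0.52 ± 0.14, adjusted p = 0.075). Cd14, the co-receptor for endotoxin, ranged from 5.28 to 10.6 RPKM and did not pass either (-0.27, adjusted p = 0.49).

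In the matrix and coagulation group none of 4 passed. Tgfbi, an adhesion protein of the extracellular matrix, measured 22.0, 29.9, 30.7 and 30.5 RPKM, then 18.1, 19.6, 12.1 and 14.2, then 28.1, 12.1, 27.1 and 14.5. PBS and CpG-scrODN did not overlap, while CpG-STAT3dODN fell into a high and a low pair of libraries. The difference for CpG-scrODN was -0.79 ± 0.26 (limma adjusted p = 0.14). Fn1 (fibronectin), F13a1 (a coagulation transglutaminase subunit) and Vcan (versican) had differences between -0.52 and -0.29 in that comparison.

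Plac8 (chr5:100551589-100572253), which encodes a small cysteine-rich protein, showed the largest fitted difference of the 37 between the CpG-scrODN and PBS labels. It measured 116, 112, 117 and 420.3 RPKM, then 36.7, 36.1, 23.6 and 35.1, then 49.0, 27.1, 77.7 and 86.1. Every PBS library was above the other 8, and replicate 4 was far above the other PBS libraries. The log2 difference was -2.26 ± 0.44 for CpG-scrODN (limma adjusted p = 0.012) and -1.52 for CpG-STAT3dODN (adjusted p = 0.15). Without 1 library at a time the first ranged from -2.43 to -1.80. Aif1, a calcium-binding protein of phagocytes, was at 1.14 to 6.96 RPKM and not called (-0.93, adjusted p = 0.16). Alox5ap, which presents arachidonate to the enzyme that starts leukotriene synthesis, ranged from 57.4 to 374 RPKM and pointed upwards without passing (0.85, adjusted p = 0.42).

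The S100 genes, Anxa1 and the scaffold gene Ahnak had no call in any comparison. S100a10, whose product binds annexin A2 at the membrane, measured 90.9, 111, 132 and 234 RPKM, then 148, 144, 147 and 231, then 138, 182, 131 and 365. Replicate 4 was the highest of each group. The difference between CpG-scrODN and PBS was 0.30 ± 0.35 (limma adjusted p = 0.70).

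Of the 37 genes, 6 were highest in replicate 4 of all 3 labels (16.2%, against 11.5% of all tested genes). These are S100a10, S100a4, Ahnak, Lgals3, Cd68 (a lysosomal glycoprotein) and Clec7a (Dectin-1, the receptor for fungal beta-glucan), and for each the 3 libraries numbered 4 were above the other 9, which held for 4.42% of all tested genes. Ahnak measured 23.1, 25.5 and 34.4 RPKM in the replicates 4 and 2.26 to 8.52 in the other 9. Lgals3 was at 70.4, 25.7 and 78.9 RPKM against 10.7 to 23.8. Clec7a was at 12.7, 2.86 and 4.13 RPKM against 0.573 to 1.75. S100a4 was at 17.5 to 21.7 against 5.90 to 11.3, and Cd68 at 12.6 to 15.5 against 7.02 to 11.4. Itgax and Anxa1 were lowest in replicate 4 of every label (5.41%, against 13.2%). The labels do not say that a replicate number marks a shared animal, batch or day. Low Fos was seen in the replicates 4 of PBS and CpG-STAT3dODN and not in that of CpG-scrODN (1038 RPKM), and its part in this pattern was not tested.

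**Figure D4:**
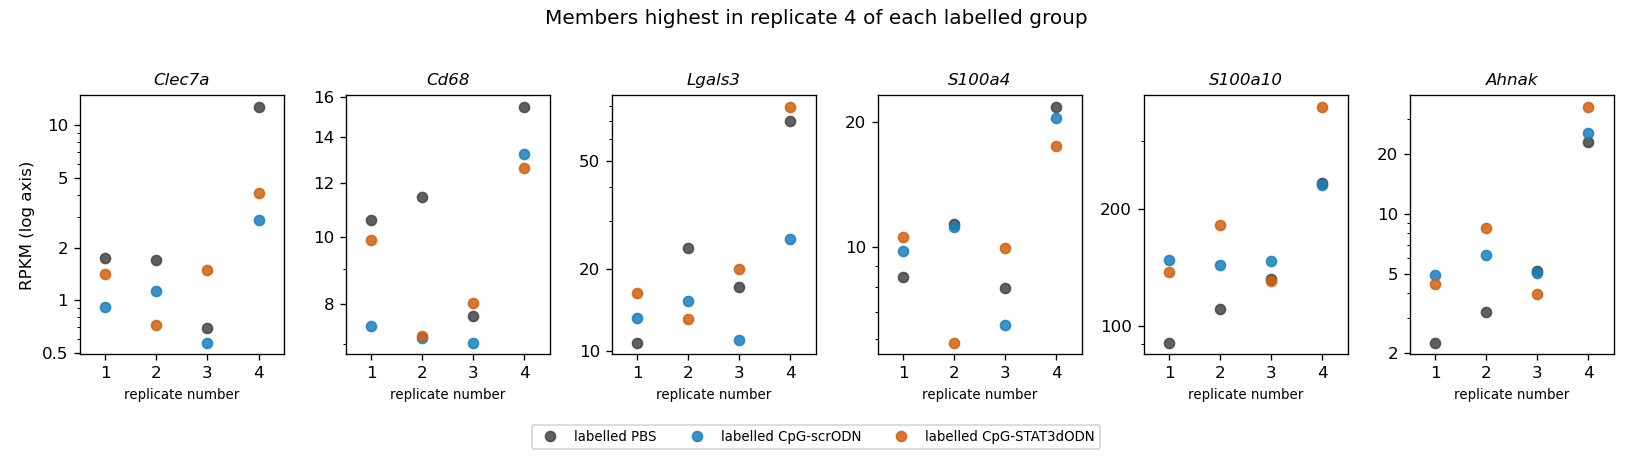
RPKM (log axis) of the 6 genes that were highest in replicate 4 of every label, plotted by replicate number and coloured by label. In each panel the 3 points at replicate 4 lie above all 9 others, as with Ahnak at 23.1 to 34.4 against 2.26 to 8.52 RPKM.

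Partner genes from the same pathways were counted with the same test, beside which stand 4.04% of all tested genes lower for CpG-scrODN and 1.83% lower for CpG-STAT3dODN. A single call in a list of 12 is 8.33%. Of 17 tested genes of Fc receptor and ITAM signalling, 5 were lower for CpG-scrODN and 2 for CpG-STAT3dODN. Fcgr2b, the inhibitory IgG receptor, differed by -1.42 and -1.41, and the kinase Syk, which docks on phosphorylated ITAMs, by -1.34 and -1.16 (limma adjusted p = 0.0018, 0.0038, 0.0037 and 0.016). The receptor Clec5a differed by -0.95 for CpG-scrODN (adjusted p = 0.021). Syk lost its second call without PBS replicate 1, and Clec5a its call without PBS replicate 2 or 4 or CpG-scrODN replicate 3 or 4.

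Of the 6 tested oxidase partners only the proton channel Hvcn1, which offsets the charge that the oxidase moves, was called, by -2.42 and -1.88 (limma adjusted p = 0.00037 and 0.0037). Among 17 tested regulators of monocyte fate, 4 were lower for CpG-scrODN and 2 for CpG-STAT3dODN. Irf8, the factor that commits progenitors to the monocyte and dendritic lines, differed by -2.53 and -2.02 (limma adjusted p = 0.00027 and 0.0019). Cebpe (-1.36), Klf4 (-0.96) and the cytokine receptor chain Csf2ra (-0.51) were also called for CpG-scrODN, and each lost its call without at least 1 library, CpG-scrODN replicate 3 among them. Nr4a1, which non-classical monocytes need in the mouse, was called for CpG-STAT3dODN only (-1.30, adjusted p = 0.013), and the difference between the comparisons was not tested. That call was lost without CpG-STAT3dODN replicate 2 (adjusted p = 0.051). All 10 markers of tissue handling, Fos among them, had negative differences for CpG-STAT3dODN, against 3 of 10 for CpG-scrODN, with 0 called. Over all tested genes, 53.7% and 59.9% of the differences were negative in these comparisons. The relation of the handling markers to the Nr4a1 difference was not tested.

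Of 20 tested surface and other monocyte genes, 7 were lower for CpG-scrODN and 3 for CpG-STAT3dODN. Those called for CpG-scrODN included Ms4a4c (-2.40), Ly6c2 (-1.67), the marker of classical mouse monocytes, and Ms4a6c (-1.51), with limma adjusted p = 0.0071, 0.0044 and 0.0057. For CpG-STAT3dODN they included Ms4a4c (-2.04) and Ms4a6c (-1.50), and the call of Ms4a4c was lost without any 1 of several libraries, PBS replicate 1 among them. Among 6 tested Toll receptors and adaptors, Tlr1 (-1.70 and -1.49), Tlr9 (-1.67 and -1.40) and, for CpG-scrODN, Card9 (-0.99) were called, and Tlr9 passed the filter only through the libraries labelled PBS and lost its second call without PBS replicate 1 or any 1 of the other 8 libraries. Of 12 integrin partners 1 was called (Itgb5, -0.65), which also passed the filter only through PBS and did not hold without PBS replicate 1 or 2 or CpG-scrODN replicate 1, 2 or 3, and of 12 S100 and annexin relatives 1 (Anxa3, -0.97), both for CpG-scrODN. No partner was called higher, none of 6 leukotriene enzymes was called, and the 5 ligands of Ccr2 and Cx3cr1 did not pass the filter. Between the CpG labels limma called 0 partners.

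Markers of B and T cells were also lower in the libraries not labelled PBS. The summed RPKM of 10 B cell markers was 180.1 to 679.9 with the label PBS, 9.95 to 26.5 with CpG-scrODN and 24.0 to 110.04 with CpG-STAT3dODN, with 9 of 9 tested markers lower for CpG-scrODN and 8 of 9 for CpG-STAT3dODN. Of the 9, Pax5 and Fcer2a passed the filter only through PBS. No B cell marker was at 0 in any library, and Cd79a, which signals for the surface immunoglobulin, was at 45.0 to 187 RPKM with the label PBS and 2.35 to 30.4 in the other 8 libraries. The sum of 5 T cell markers was 14.2 to 52.4, 1.82 to 3.67 and 2.09 to 4.43, with 3 of 3 tested lower in each comparison with PBS, although Cd3g and Cd2 passed only through PBS. Of the 4 plasma cell markers, 2 were called lower for CpG-scrODN and 1 for CpG-STAT3dODN. For CpG-scrODN, Jchain differed by -2.92 and Mzb1 by -3.09 (limma adjusted p = 0.0077 and 0.00033), and Sdc1 and Xbp1 were not called. The 4 summed to 100.6 to 153 RPKM with the label PBS, 41.3 to 64.5 with CpG-scrODN and 70.2 to 87.9 with CpG-STAT3dODN. Of 2 tested plasmacytoid dendritic cell markers, 1 was lower for CpG-scrODN (Tcf4, -0.93, limma adjusted p = 0.025), which passed only through PBS. The other, Bst2, was not called (0.11, limma adjusted p = 0.37). Of the untested ones, Siglech had a higher mean with CpG-scrODN than PBS (0.114 against 0.099 RPKM) and Ccr9 a lower one (0.083 against 0.154). The sums of the list overlapped, at 58.2 to 76.2, 58.3 to 76.3 and 59.2 to 75.6 RPKM. Conventional dendritic cell markers summed to 2.91 to 4.51, 2.01 to 2.52 and 1.83 to 3.06 RPKM, and the PBS sums lay wholly above those of CpG-scrODN. Only Flt3 of the 6 was tested, and it was not called (-0.54 for CpG-scrODN, limma adjusted p = 0.081). Flt3 would not have passed the filter without the libraries labelled PBS. Single markers of this list went both ways. Means with CpG-scrODN were above those with PBS for Xcr1 (0.218 against 0.083 RPKM), Clec9a (0.193 against 0.045) and Cd209a (0.063 against 0.005). They were below those with PBS for Flt3, Zbtb46 and Batf3. Of the 4 megakaryocyte markers only Itga2b was tested, and it pointed upwards for CpG-scrODN (1.27, limma adjusted p = 0.30). The untested ones had means under 1 RPKM with either label, lower with CpG-scrODN than PBS for Pf4 and Ppbp and higher for Gp9. Of the 4 NK cell markers only Nkg7 was tested, and it was not called (-0.27 for CpG-scrODN, limma adjusted p = 0.74). The untested ones, all with means under 1 RPKM, were lower with CpG-scrODN than PBS. For Eomes, 1 of them, the means were 0.124 against 0.540 and the groups did not overlap. No erythroid marker was called. Pld4, Itgal, Plac8, the oxidase genes, Syk, Fcgr2b, Hvcn1, Irf8 and Tlr9 are also expressed by B cells. The part of B cells in these differences was not tested. In bulk RNA, fewer cells of a type and less RNA per cell cannot be told apart.

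Markers of the myeloid cells themselves were mixed. Kit, the receptor used for enrichment, was present in all libraries at 10.5 to 51.1 RPKM and was not called. Its difference pointed upwards, by 0.75 for CpG-scrODN (limma unadjusted p = 0.0498, adjusted p = 0.32) and by 0.84 for CpG-STAT3dODN (0.030 and 0.41). That of Cd34 was 1.23 for CpG-scrODN (unadjusted p = 0.040, adjusted p = 0.29). The progenitor list summed to 318 to 433 RPKM with the label PBS, 119 to 171 with CpG-scrODN and 182 to 343 with CpG-STAT3dODN. Within it the granule enzymes Mpo, Elane, Prtn3 and Ctsg were called lower for CpG-scrODN (-2.09 to -1.93) and Kit and Cd34 were not called. The 8 neutrophil markers summed to 1719.7 to 5161, 527 to 2206 and 1861 to 4165 RPKM. For CpG-scrODN all 8 had negative differences (against 59.9% of all tested genes) and 0 were called. An unadjusted p under 0.05 in limma was reached by 5 of them for CpG-scrODN (62.5%, against 15.6% of all tested genes). The 9 red pulp macrophage markers, which name the resident macrophage of the spleen, summed to 61.4 to 145, 54.3 to 146 and 45.8 to 80.9 RPKM with 0 of 8 tested called. Among the CpG-scrODN libraries, replicate 4 was at 146, and replicates 1 to 3 were at 54.9, 54.3 and 68.1. Differences were negative for 7 of the 8 for CpG-scrODN and for all 8 for CpG-STAT3dODN, against 59.9% and 53.7% of all tested genes. In each comparison with PBS, 2 of the 8 markers had an unadjusted p under 0.05 in limma (25%, against 15.6% and 9.40% of all tested genes). The part of neutrophils and red pulp macrophages in the differences of the monocyte genes was not tested.

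**Figure D5:**
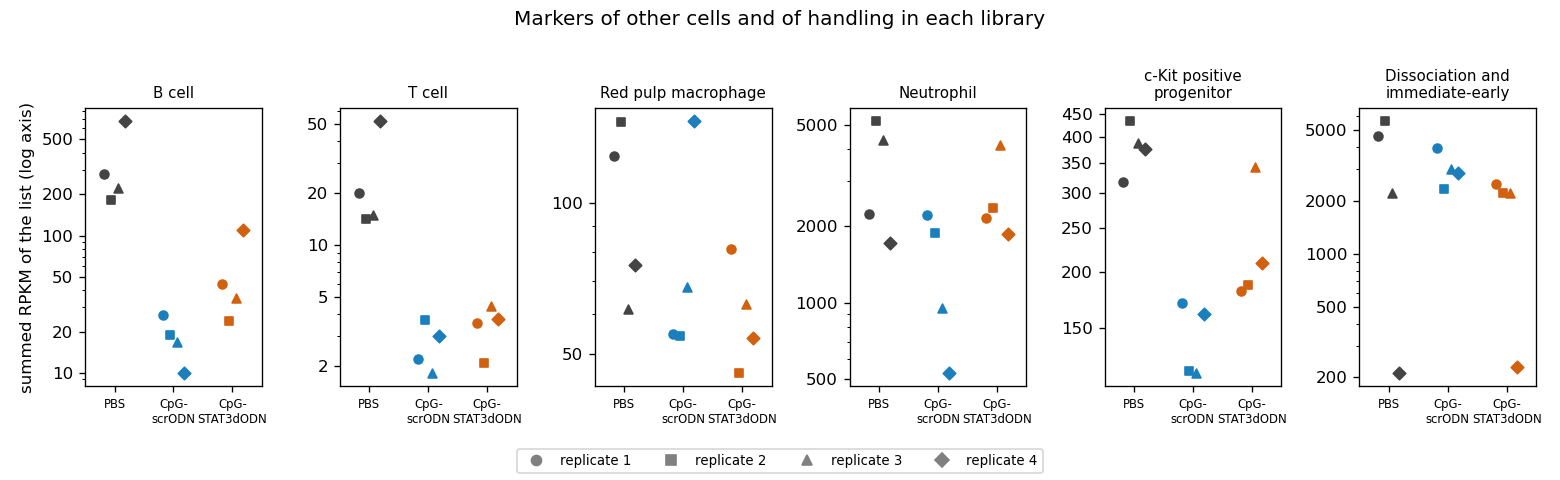
Summed RPKM (log axis) of 6 marker lists in each library, by label, with marker shape for the replicate number. B cell and T cell sums with the label PBS lie above all other libraries, red pulp macrophage and neutrophil sums overlap between labels, and the immediate-early sum is low in PBS replicate 4 (210.07) and CpG-STAT3dODN replicate 4 (228).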

How the data were processed

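Total RNA from 12 spleen preparations enriched for c-Kit positive cells was sequenced on libraries made with an Illumina kit, per the labels' protocols. The authors deposited 1 table of RPKM values a library, and the submitters' processing notes name TopHat 1.3.1, Partek 6.12.0713 and the build mm10 without saying what each did. The sources used here do not give the annotation, strand handling or filters. RPKM hides depth, so it was estimated from the steps between low values of single-transcript genes. Between 66.7% and 70.2% of the values of 844 to 959 genes came out whole within 0.05 of a read, too few for a count test.

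Values were analysed as log2(RPKM + 1). Genes with at least 1 RPKM in at least 4 of 12 libraries were kept (10886), and 1 limma 3.58.1 model (R 4.3.3, trended prior) with the 3 labelled groups gave two-sided moderated tests, with Benjamini-Hochberg adjustment over all kept genes and calls at an adjusted p under 0.05. No label says that a library stands for a mouse of its own. The p-values therefore measure the spread between these libraries alone, which may be technical. The script was tested on simulated data with known changes. Per-library values are given for every called gene of the 41 and, in roles with none, for the gene of highest mean, while partner lists name up to 4 called genes a comparison, some of which are not reported here. The members, lists, motifs and rules were chosen with earlier results of these data known. Gene positions and promoter windows are from RefSeq on GRCm38.p6. Figures were drawn with matplotlib 3.10.9.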

Additional observations from a re-analysis of the deposited data

Results flagged for a closer look

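Single libraries lay far from the other 3 of their label in 12 of the 111 groups of 4 checked over the 37 genes, by the gap to the nearest library relative to the group's range on the log2 scale. Chance gives about 1 in 20 such groups. The 12 fall in 11 genes, and 5 of them are in replicate 4. With the label PBS, replicate 4 was high for Plac8 (420.3 RPKM, next library 117) and for Mpeg1 (31.2, next 13.7). Replicate 1 of that label was low for Cst3 (92.0, next 108), S100a6 (16.7, next 35.5) and Tgfbi (22.0, next 29.9), and replicate 2 was high for Sirpa (16.9, next 13.1). With the label CpG-scrODN, replicate 4 was high for Cd68 (13.2, next 7.42), S100a10 (231, next 148) and Ahnak (25.5, next 6.24), and replicate 3 was low for Plac8 (23.6, next 35.1). With the label CpG-STAT3dODN, replicate 2 was low for Ifi30 (20.7, next 42.9) and replicate 1 was high for Itgal (7.11, next 6.64), where the whole group spans 6.55 to 7.11 RPKM. The Plac8 and Itgal calls for CpG-scrODN held without each of these libraries.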

How the results depend on the processing

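Main counts of genes called were 10, 3 and 0 (CpG-scrODN against PBS, CpG-STAT3dODN against PBS, and CpG-STAT3dODN against CpG-scrODN). A pseudocount of 0.1 gave 10, 3 and 0, no filter 10, 3 and 0 (8 and 2 of them shared with the main calls, Cx3cr1 and Fcgr1 replacing Itgam and Fcgr4, and Cx3cr1 replacing Cybb), a floor of 5 RPKM 8, 3 and 0, quantile normalization 8, 3 and 0, size factor scaling 9, 3 and 0, and fits of 2 groups only 11, 2 and 0. Leaving out 1 library at a time gave 7 to 11, 2 to 3 and 0 to 0. With library quality weights the counts were 19, 8 and 12; the cause was not tested, and the weights (0.112 to 10.6) did not reach their convergence tolerance. Same-numbered libraries correlated from -0.341 to 0.817 in their deviations from the group mean (12 pairs, 5 over 0.1), so the numbers were not taken as pairing, and the replicate block gave 9, 2 and 0. Over 21 alternatives, Pld4, Itgal, Itgb2, Cybb, Ncf1, Ncf4 and Plac8 stayed called for CpG-scrODN, Itgam lost its call in 15, Fcgr4 in 9 and Psap in 7. For CpG-STAT3dODN, Pld4 and Itgal stayed called and Cybb was lost in 10. No called gene changed sign.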
